A study of Mus musculus with 2 samples.

Results

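The 41 genes described here encode the enzymes that remove methyl groups from histones (17 demethylases), the enzymes and partner subunits that add them (15 genes), and the CHD family of chromatin remodellers (9 genes). The 15 include Kmt2e as a relative of the H3K4 writers. The genes were chosen by name and not by a cut on their values, but with earlier results of these data known. All 41 were found among the 21938 protein-coding genes of the GENCODE M21 annotation of the mouse assembly mm10. Their chromatin was read by DNase-seq, in which the nuclease DNase I cuts DNA where it is accessible and the released ends are sequenced. The tissue was midbrain from healthy newborn B6NCrl mice (age 0 days) of both sexes in a pool, in 1 group of 2 biological replicates with no second condition. Each replicate has its own biosample, but both biosamples lead to a single pooled donor entry, so part of the difference between the libraries may be technical. The nuclei protocol named in the labels includes a crosslinking step and is titled for cultured cells.

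Methylation of lysines on histone H3 and H4 marks chromatin for use or for silence. The KMT2 enzymes write H3K4 methylation at promoters and enhancers, Polycomb repressive complex 2 writes the repressive H3K27 mark, and EHMT1, EHMT2 and SETDB1 write H3K9 methylation. The lysine demethylases (KDM) remove these marks, and CHD proteins use ATP to slide or eject nucleosomes. In the developing brain these proteins help to switch off progenitor genes and to switch on neuronal ones, and human mutations of CHD7, CHD8, KMT2D, KDM6A, EHMT1 and NSD1 cause developmental syndromes.

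The deposited lists held 228203 usable peaks of 150 bp in replicate 1 and 122593 in replicate 2, a ratio of 1.86. Each peak carries a whole-number signal set by the authors, which was not scaled between libraries, so it is given for each library and also as a percentile within that library's own list. Sequencing depth is unknown. The tissue label was read against defining markers: shared promoter regions, which 61% of all protein-coding genes had, were present at 5 of 5 neuronal, 3 of 5 midbrain, 3 of 4 astrocyte and radial glia, and 3 of 4 oligodendrocyte-lineage genes, and at 0 of 4 microglial, 0 of 3 endothelial, 0 of 3 blood and 0 of 3 liver genes. Of the accessible regions of both libraries away from promoters, 76 lay around the neuronal genes, 24 around the astrocyte and radial glia genes, 16 around the oligodendrocyte-lineage genes and 15 around the midbrain genes, but also 14 around the microglial and 11 around the endothelial genes, against 2 around the liver and 0 around the blood genes. These counts were not divided by domain length, so a list of longer genes can hold more, and they were not set against all genes. In whole tissue, a signal from fewer cells cannot be told apart from a weaker signal in each cell.

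Peaks of both libraries that overlapped or touched were merged into regions, and a region was called shared when it held a peak of each. A promoter region overlapped the 500 bp on either side of a transcription start site (TSS) annotated for the gene, and a distal region had its midpoint over 500 bp from every TSS of every gene. The domain of a gene is its body with 10 kb on each side. The following sequences, from the RefSeq copy of mm10, are the strongest shared distal regions of 6 genes on which the distal results turn, restricted to the stretch outside annotated exons and written on the plus strand, with matches to the motifs described further on in capitals. In the Kdm5b region the capitals mark a SOX match, an SP/KLF match, an NFY match, an E-box and a second SP/KLF match. The capitals are a pair of SP/KLF matches in Chd3. In Chd9 they are an AP-1 match, an NFI match, an E-box and an NFY match. The stretches shown for Kdm6b, Kdm4b and Dot1l hold no match to the exact letters of the 13 motifs. Longer or inexact forms were not searched, and the CTCF core was searched only as AGGGGGC.
Kdm6b (chr11:69418876-69418988, plus strand): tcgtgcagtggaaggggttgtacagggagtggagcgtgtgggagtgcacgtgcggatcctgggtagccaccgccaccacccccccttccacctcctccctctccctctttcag
Kdm5b (chr1:134556996-134557165, plus strand): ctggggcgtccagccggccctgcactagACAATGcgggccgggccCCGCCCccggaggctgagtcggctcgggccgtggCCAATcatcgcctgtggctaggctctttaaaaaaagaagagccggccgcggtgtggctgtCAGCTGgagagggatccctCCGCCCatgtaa
Kdm4b (chr17:56357676-56357825, plus strand): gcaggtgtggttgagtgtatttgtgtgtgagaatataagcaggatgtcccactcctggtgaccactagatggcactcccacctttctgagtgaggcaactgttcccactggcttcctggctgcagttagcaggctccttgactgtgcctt
Dot1l (chr10:80774676-80774845, plus strand): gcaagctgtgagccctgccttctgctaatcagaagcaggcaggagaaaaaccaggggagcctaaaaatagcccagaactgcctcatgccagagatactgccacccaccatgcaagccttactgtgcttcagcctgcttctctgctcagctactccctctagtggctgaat
Chd3 (chr11:69366536-69366705, plus strand): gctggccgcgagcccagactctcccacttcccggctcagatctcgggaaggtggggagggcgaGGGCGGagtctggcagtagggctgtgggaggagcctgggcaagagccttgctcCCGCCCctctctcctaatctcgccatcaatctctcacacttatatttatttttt
Chd9 (chr8:90870516-90870685, plus strand): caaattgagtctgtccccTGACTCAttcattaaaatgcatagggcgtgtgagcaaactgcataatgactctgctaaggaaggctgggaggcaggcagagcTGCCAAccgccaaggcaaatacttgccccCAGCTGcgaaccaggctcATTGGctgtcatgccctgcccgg

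Promoters were the common feature of the group. A shared promoter region was present at 41 of 41 genes (100%, 95% Wilson interval 91.4 to 100), whereas 13391 of all 21938 protein-coding genes, 61%, had one. In replicate 1 alone the counts were 41 of 41 against 68.9% of all genes, and in replicate 2 alone 41 of 41 against 62.6%. A hotspot of both libraries, the authors' wider interval of enriched cutting, lay at 41 of 41 promoters against 62.1% of all genes. All intervals here cover counting error only. The libraries are 2 samples of 1 group, so no test between conditions was possible and the whole-genome shares serve as a background.

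Most of these promoters were rich in CpG. The ratio of observed to expected CpG dinucleotides within 500 bp of a TSS, taken at the most CpG-rich start of each gene, had a median of 0.855 over the 41 genes and 0.627 over all protein-coding genes. When all genes were ranked by this ratio, 39 of the 41 fell into the 4 richest deciles, in which 91.1% to 96.5% of all genes had a shared promoter region. By this ratio the 2 exceptions were Kdm6b in the fourth decile (46.1% of its genes had one) and Kdm4a in the fifth (78.3%). A gene with more starts has more chances of a high ratio, and the median number of starts was 8 against 3. Within 500 bp of the centre of the strongest shared promoter region, the ratio was lowest in Kdm6b (0.242), Chd3 (0.275) and Chd9 (0.385). The part of CpG content in the promoter result was not tested.

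The genes had many annotated starts, a median of 8 against 3 over all protein-coding genes. At least 2 shared promoter regions were present at 27 of 41 genes (65.9%, 50.5 to 78.4), against 30.8% of all genes. The 30.8% were 6763 genes, out of 13391 with any shared promoter region, which all 41 members had. Their share of those 13391 is higher than 30.8%. A gene with more starts also has more windows in which to find 2 regions. Chd9 had 6 such regions, Kdm2b and Nsd1 had 5 each, and Kdm2a and Chd7 had 4 each. The strongest shared promoter region was also within 500 bp of a start of another protein-coding gene for 4 of 41 members (9.76%). The same held for 2464 of the 13391 genes with such a region. As a share of all genes this is 11.2%, with genes that have no such region included. All 41 members had one, so the 9.76% compares with the share of the 13391 and not with the 11.2%. The 4 members were Kdm1b with Tpmt, Kdm4d with Cwc15, Kdm5a with Ccdc77 and Ehmt2 with C2, and there the signal cannot be assigned to 1 of the genes.

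For 6 members, 14.6%, the strongest shared promoter region lay over 1000 bp inside the gene at an internal start, against 11.96% of all genes with a shared promoter region. In Chd9, an ATP-dependent remodeller of the CHD7 subgroup, it lay 127039 bp from the gene's first start with signals of 131 in replicate 1 and 68 in replicate 2, whereas the regions nearest the first start had 55 and 20, and 127 and 56. In Kdm2b, a CpG-binding H3K36 demethylase that recruits Polycomb complexes, it lay 89372 bp inside the gene with signals of 131 and 71, whereas its other 4 shared promoter regions had 42 to 94 in replicate 1 and 15 to 45 in replicate 2. The other 4 were Kdm4c at 9384 bp, Chd3 at 4345 bp, Chd2 at 3929 bp and Nsd1 at 1919 bp. The strongest region was centred upstream of its nearest own TSS in 38 of 41 genes (92.7%), against 75.8% of all genes with one. Its median offset was -90 bp in the 41 genes and -39 bp in all genes.

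**Figure D1:**
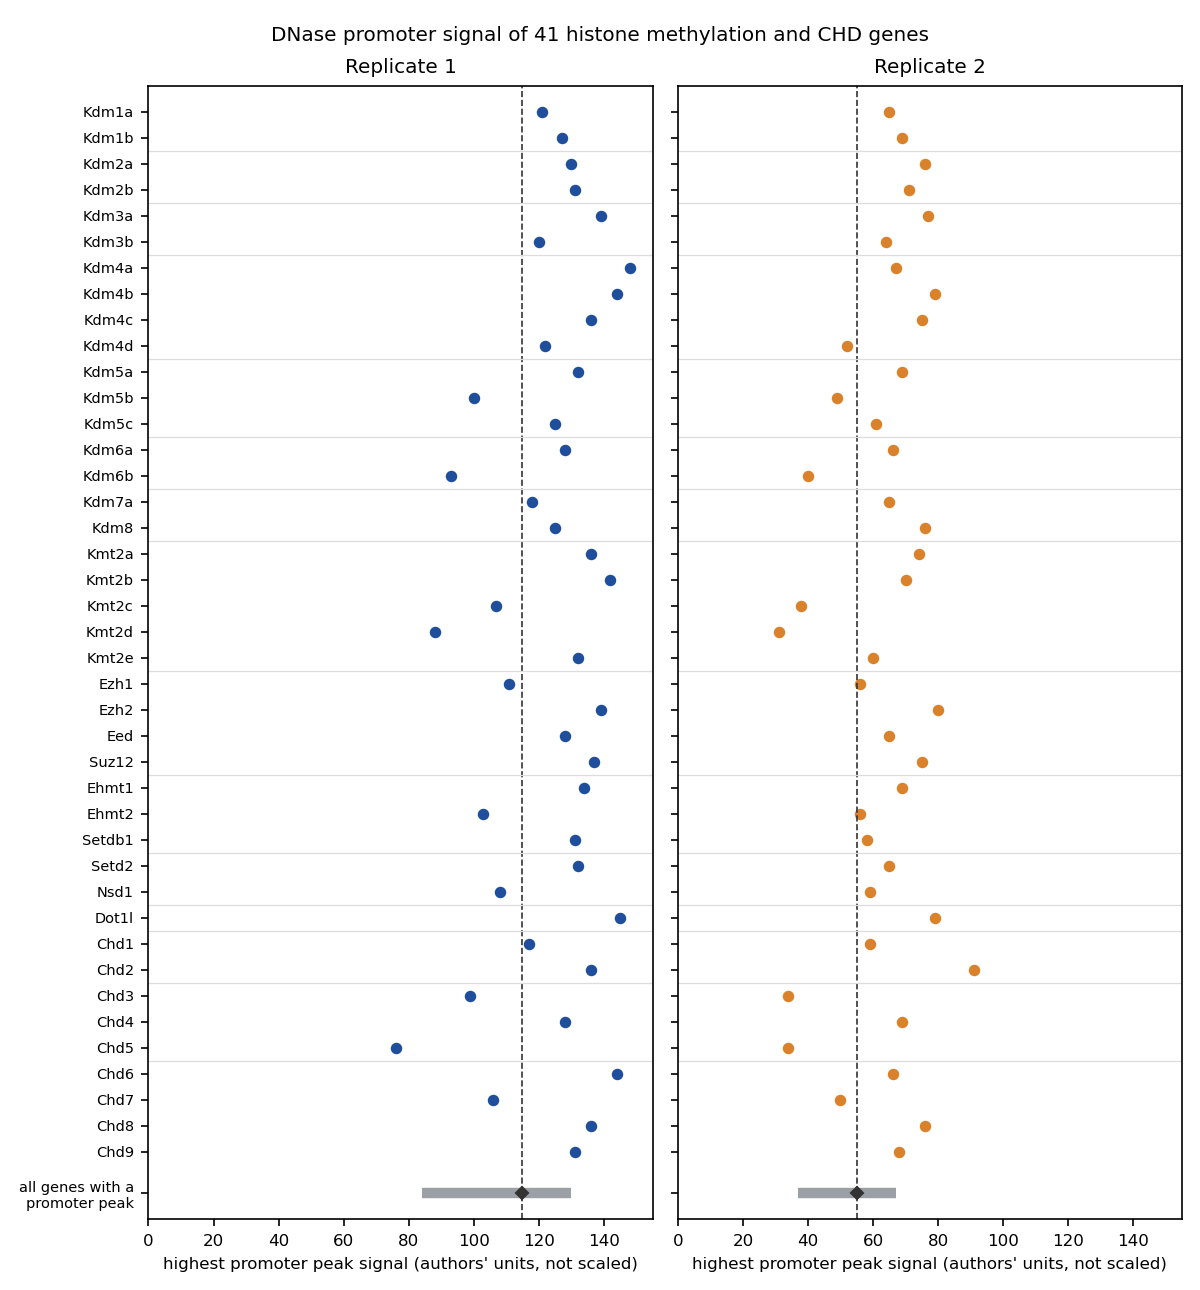
Highest promoter peak signal of each of the 41 genes (horizontal axis, authors' units, not scaled between libraries) in replicate 1 on the left and replicate 2 on the right, with thin lines between subfamilies; the bottom row shows the median (diamond, dashed line) and quartiles (bar) of all protein-coding genes with a promoter peak. In replicate 1, 31 of the 41 genes lay above the all-gene median of 115, and in replicate 2, 33 lay above the median of 55.

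Promoter signals of the 41 genes had a median of 128 in replicate 1 and 66 in replicate 2, the 98.1 and 96.9 percentiles of all peaks in those libraries. Over all protein-coding genes with a promoter peak these medians were 115 and 55, at percentiles of 96.1 and 93.4. Each value is the highest over all starts of a gene, so the larger number of starts in these genes gives more chances of a high value. The hotspot at the promoter was in the strongest q class in replicate 1 for 41 of 41 genes, against 61.7% of all genes, those without a promoter hotspot included. In replicate 2 it was in that class for 39 of 41, against 50.2% of all genes, and the exceptions were Chd5 and Kmt2d with −log10 q values of 3.62 and 3.94.

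By percentiles in both libraries, the highest promoter signal was that of Dot1l, the H3K79 methyltransferase, with 145 in replicate 1 and 79 in replicate 2. Next came Kdm4b (144 and 79), Chd2, and Ezh2, the catalytic subunit of Polycomb repressive complex 2 (139 and 80). Kdm4a, a demethylase of H3K9 and H3K36, had the highest value of the group in replicate 1, 148, and 67 in replicate 2. Chd2, a remodeller linked to epilepsy in humans, had the highest value in replicate 2, 91, and 136 in replicate 1. At the low end, Chd5, a neuronal CHD remodeller of the NuRD type, had 76 and 34, at percentiles of 82.1 and 80.4. Kmt2d, an H3K4 monomethyltransferase of enhancers, had 88 and 31, Kdm6b, an H3K27 demethylase, had 93 and 40, and Chd3, another NuRD remodeller, had 99 and 34. These same 4 genes held 4 of the 5 lowest places in replicate 2, where Kmt2c had 38. The ranking uses GENCODE starts alone. Within 500 bp of RefSeq starts of the same gene, regions counted as distal had 135 and 61 in Kdm6b, 130 and 58 in Chd3, and 93 and 47 in Chd5.

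The following promoter stretches are from RefSeq (GRCm38.p6), read in the direction of transcription, from the 250 bases before the RefSeq start and restricted to bases outside annotated exons. They belong to the highest promoter signal in replicate 1, the gene with high values in both libraries, and the lowest signal in replicate 1. RefSeq promoter entries were matched for 29 of the 41 genes, and none for Kdm2a, Kdm3b, Kdm4b, Kdm5a, Kdm6b, Kmt2b, Kmt2e, Nsd1, Chd1, Chd2, Chd3 and Chd7. The shared region covered 115 of the 203 bases shown for Kdm4a, 85 of 148 for Dot1l and 130 of 242 for Chd5. Capitals mark an AP-1 match in Kdm4a, an ETS and a CTCF core match in Dot1l, and 2 SP/KLF matches in Chd5. Of these 5 matches, the CTCF core match of Dot1l lay within the shared region and the other 4 lay outside it. The shared regions reach beyond the stretches shown. Their central 150 bp held an NFY match in Kdm4a, SP/KLF and CTCF core matches in Dot1l and an SP/KLF match in Chd5.
Kdm4a (chr4:118180091-118180293, minus strand): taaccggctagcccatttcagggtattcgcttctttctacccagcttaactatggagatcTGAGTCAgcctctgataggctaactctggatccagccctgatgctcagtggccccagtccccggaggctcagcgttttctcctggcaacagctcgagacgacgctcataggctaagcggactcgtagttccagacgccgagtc
Dot1l (chr10:80754953-80755100, plus strand): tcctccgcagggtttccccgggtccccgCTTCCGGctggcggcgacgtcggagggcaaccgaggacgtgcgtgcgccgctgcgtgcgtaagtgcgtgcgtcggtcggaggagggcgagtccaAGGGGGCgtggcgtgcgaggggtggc
Chd5 (chr4:152338404-152338645, plus strand): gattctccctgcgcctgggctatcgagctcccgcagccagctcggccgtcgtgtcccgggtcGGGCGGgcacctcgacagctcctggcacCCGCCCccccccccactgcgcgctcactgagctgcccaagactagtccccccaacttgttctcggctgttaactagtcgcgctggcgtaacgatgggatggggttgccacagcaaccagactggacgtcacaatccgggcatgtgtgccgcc

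Away from promoters the genes differed widely. At least 1 shared distal region lay in the domains of 35 of 41 genes (85.4%, 71.6 to 93.1), against 63.3% of all protein-coding genes, and at least 5 lay in those of 12 (29.3%, 17.6 to 44.5), against 11.4%. The domains of the 41 genes were longer, with a median of 81.6 kb against 37.4 kb. Per 100 kb of domain, shared distal regions had a median of 2.77 (quartiles 1.17 and 5.11) over the 41 genes and 2.26 (0 and 4.67) over all genes. Within length classes, the medians were 5.47 for the 6 members against 2.68 for all genes at 30 to 50 kb, 3.80 for 22 members against 2.25 at 50 to 100 kb, 1.99 for 11 members against 2.46 at 100 to 200 kb, and 2.43 for 2 members against 1.96 above 200 kb. The difference from all genes was therefore not in 1 direction across lengths.

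**Figure D2:**
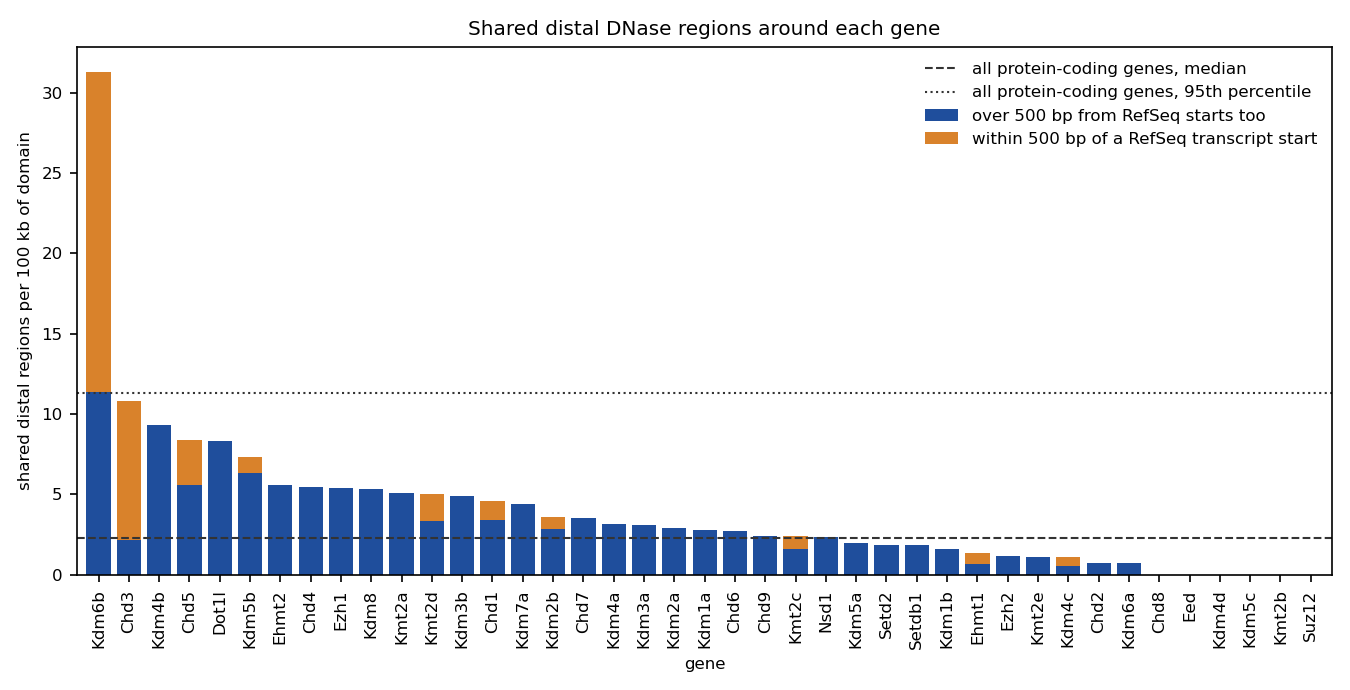
Shared distal regions per 100 kb of domain (vertical axis) for the 41 genes in descending order, split into regions within 500 bp of a RefSeq transcript start (orange) and the rest (blue); the dashed and dotted lines are the median and the 95th percentile of all protein-coding genes. Kdm6b at 31.3 lies above the 95th percentile of 11.3, and 6 genes have no shared distal region.

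Kdm6b stood highest with 31.3 shared distal regions per 100 kb, 11 regions in a domain of 35.2 kb, at the 99.9 percentile of all protein-coding genes. It was followed by Chd3 with 10.8 (5 regions), Kdm4b with 9.30 (9 regions), Chd5 with 8.39 (6 regions) and Dot1l with 8.30 (5 regions). In number, Kdm6b with 11 and Kdm4b with 9 were followed by Kdm5b and Chd7 with 7 each and by Kmt2c, Chd5 and Chd9 with 6 each. None was present around Kdm4d, Kdm5c, Kmt2b, Eed, Suz12 and Chd8. Those 6 domains still held 1 to 5 distal regions with a peak of replicate 1 and 0 to 2 with a peak of replicate 2. Chd8 had 5 in replicate 1 and 2 in replicate 2, Eed had 4 and 1, and Kmt2b had 3 and 0. The promoters of the 6 genes were accessible in both libraries, with signals of 122 to 142 in replicate 1 and 52 to 76 in replicate 2.

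The choice of annotation bore on the highest values. Of the 128 shared distal regions, all over 500 bp from every GENCODE start, 21 (16.4%) were within 500 bp of a transcript start in the RefSeq annotation of the same assembly, and 14 of those starts belonged to the gene itself. Over all protein-coding domains the share was 1622 of 34252, 4.74%. Of the 21, 7 were in the Kdm6b domain and 4 in that of Chd3. Without them Kdm6b had 4 regions, 11.4 per 100 kb, at the 95.7 percentile of all genes counted in the same way, and Chd3 had 2.17 per 100 kb, at the 50.6 percentile. Chd5 lost 2 of its 6 regions, which left 5.59 per 100 kb at the 81.2 percentile. Kdm4b and Dot1l had no such region and kept 9.30 and 8.30.

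**Figure D3:**
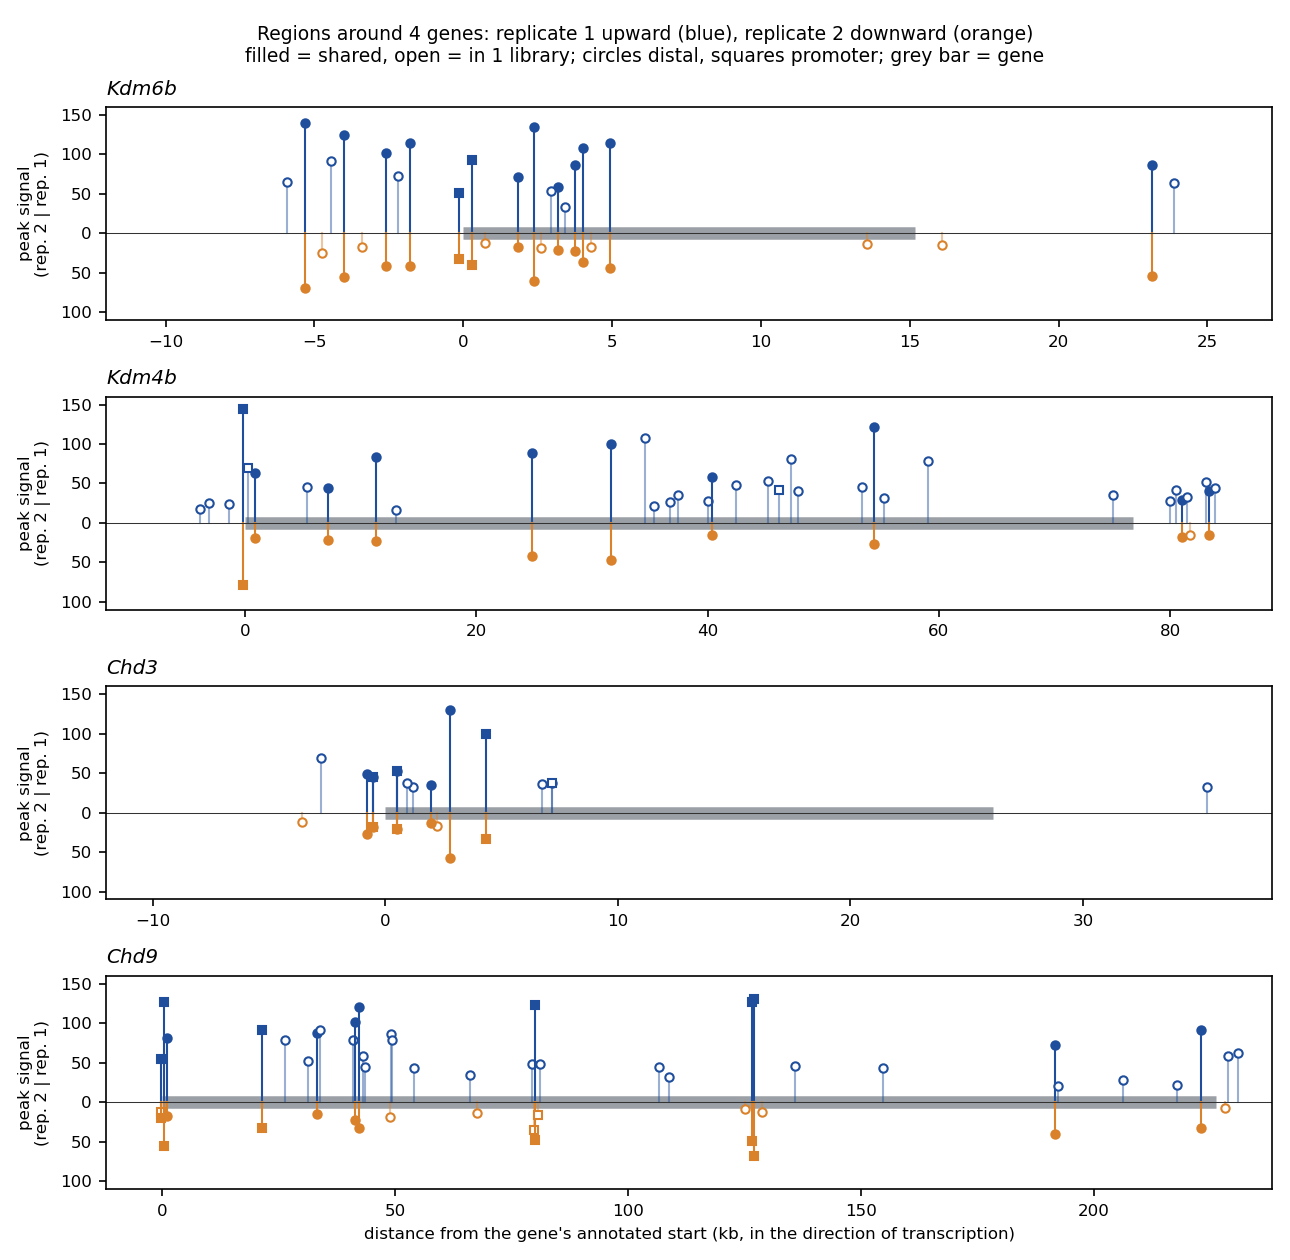
Regions around Kdm6b, Kdm4b, Chd3 and Chd9, with distance from the gene's annotated start in the direction of transcription (horizontal axis, kb) and the authors' peak signal (vertical axis), replicate 1 upward in blue and replicate 2 downward in orange. Filled symbols are shared regions, open symbols are in 1 library, circles are distal, squares are promoter regions, and the grey bar is the gene; most Kdm6b regions crowd into its first 5 kb and the 6 kb before it, and most distal Chd9 regions have a peak of replicate 1 alone.

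Among the erasers, Kdm6b encodes JMJD3, which removes the Polycomb mark H3K27me3 and is induced during neuronal commitment. Its 11 shared distal regions comprised 4 upstream of the gene, 5 in the first intron, 1 in an exon and 1 downstream. The strongest, centred 5306 bp upstream of the gene, had signals of 140 in replicate 1 and 69 in replicate 2, above the gene's own promoter values of 93 and 40. The next 2 lay in the first intron 2364 bp from the start (135 and 61) and 4006 bp upstream (124 and 56). The intronic one was 81 bp from a RefSeq start of Kdm6b, and the one 4006 bp upstream was 459 bp from another. The region 5306 bp upstream was 790 bp from the nearest RefSeq start. Of its 210 bp, the longest stretch outside annotated exons was 113 bp. Its relative Kdm6a, the X-linked H3K27 demethylase, had 1 shared distal region in 137 kb, 0.728 per 100 kb, and promoter signals of 128 and 66.

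Kdm4b, a demethylase of H3K9me3, had 9 shared distal regions, of which 7 were intronic. The strongest by the ranks of both libraries lay in intron 5, 31689 bp from the start, with signals of 100 and 47. Intron 8 held another with 121 in replicate 1 and 27 in replicate 2. Within the KDM4 group, shared distal regions per 100 kb were 3.17 for Kdm4a, 1.09 for Kdm4c and 0 for Kdm4d. Kdm5b, a demethylase of H3K4me3, had 7 regions, and the strongest, centred 3090 bp upstream, carried 138 and 68, above its promoter signals of 100 and 49. No RefSeq start was nearer than 3097 bp to it. Kdm5a had 2 regions (1.99 per 100 kb) and the X-linked Kdm5c had none.

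Kdm1a and Kdm1b, the LSD amine oxidases that act on H3K4, had 2.77 and 1.62 shared distal regions per 100 kb. Kdm2a and Kdm2b had 2.89 and 3.59, Kdm3a and Kdm3b, demethylases of H3K9, had 3.12 and 4.90, and Kdm7a, which acts on H3K9 and H3K27, and Kdm8 had 4.44 and 5.32. The 17 demethylases together held 57 shared distal regions in 1481 kb, a median of 3.12 per 100 kb.

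The 15 writer genes, with the relative Kmt2e included, held 34 shared distal regions in 1316 kb, with a median of 1.89 per 100 kb. Among the KMT2 genes, Kmt2a, needed for the upkeep of Hox expression, had 5.11 per 100 kb and Kmt2d 5.04, whereas Kmt2c had 2.43, Kmt2e 1.11 and Kmt2b 0. Without regions at RefSeq starts Kmt2d had 3.36 and Kmt2c 1.62, and the other KMT2 genes were unchanged. The strongest Kmt2c region had signals of 131 and 69, above the promoter values of 107 and 38, and lay 66 bp from a RefSeq start of the noncoding gene 4831440E17Rik. The 4 Polycomb genes had a median of 0.587. Ezh1, the catalytic subunit found mostly in non-dividing cells, had 5.42 (3 regions), its counterpart Ezh2 had 1.17 (1 region), and the scaffold genes Eed and Suz12 had 0. The promoter signals went the other way, with 111 and 56 at Ezh1 and 139 and 80 at Ezh2.

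The H3K9 writers ranged from 5.62 per 100 kb at Ehmt2, through 1.86 at Setdb1, to 1.34 at Ehmt1. The H3K36 writers Nsd1 and Setd2 had 2.33 and 1.89. Dot1l had 5 regions, 3 of them upstream of the gene, and its strongest lay in intron 7, 19555 bp from the start, with signals of 116 in replicate 1 and 33 in replicate 2, lower than its promoter values of 145 and 79.

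The 9 CHD genes held 37 shared distal regions in 1100 kb, a median of 3.55 per 100 kb. Among the NuRD-type remodellers Chd3 had 10.8, Chd5 8.39 and Chd4 5.49, and without regions at RefSeq starts these densities were 2.17, 5.59 and 5.49. By GENCODE starts, these 3 genes had the lowest subfamily median of promoter percentile in both libraries, 92.4 in replicate 1 and 80.4 in replicate 2. Both medians equal the values of Chd3. A Chd3 region with signals of 130 and 58, 161 bp from a RefSeq start of the gene, was counted as distal. Chd4 itself, which acts in dividing progenitors, had promoter signals of 128 and 69. Chd1 and Chd2 had 4.56 and 0.740 per 100 kb. Chd7, a remodeller of enhancers mutated in CHARGE syndrome, had 7 regions (3.55 per 100 kb), Chd6 had 2.75, Chd9 had 2.44 and Chd8, a high-confidence autism gene in humans, had 0. Chd7 had promoter signals of 106 in replicate 1 and 50 in replicate 2. The strongest Chd9 region lay 42249 bp from the start with signals of 121 in replicate 1 and 33 in replicate 2.

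A shared distal region with signal above every promoter peak of its gene in both libraries was present in 6 of 41 genes, against 7.59% of all protein-coding genes. Among them were Kdm5b, Kdm6b, Kmt2c, Chd3 and Chd5. As a share of genes with promoter peaks in both libraries the values were 14.6% and 12.3%. With regions at RefSeq starts left out, 4 of the 6 genes had one, Kdm5b, Kdm6b and Chd5 among them, against 7.12% of all genes. As a share of genes with promoter peaks in both libraries, which all 41 members had, this was 9.76% against 11.5%, so the members' share was above that of all genes under the first rule and below it under the second. The Chd5 region was centred 5510 bp upstream of the gene and had signals of 106 and 46, against promoter values of 76 and 34.

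Of the 128 shared distal regions, 72 were intronic (56.2%, where introns made up 70.7% of the domain length), 29 upstream (22.7%, 10.52% of length), 18 downstream (14.1%, 10.52%) and 8 exonic (6.25%, 7.78%). The first intron of the main transcript held 33 of them (25.8%) in 13.6% of the length. These shares by place were not set beside those of all protein-coding domains, so they are not shown to be particular to these genes. The nearest TSS was that of the gene itself for 88 of the 128. The median distance to the nearest TSS was 3706 bp, against 5572.5 bp for the 34252 shared distal regions of all protein-coding domains. Median signals were 73.5 in replicate 1 and 22 in replicate 2, against 68 and 22. A midpoint rule for distal regions and an overlap rule for promoter regions let 7 shared regions count as both, among them the strongest promoter region of Kmt2d.

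**Figure D4:**
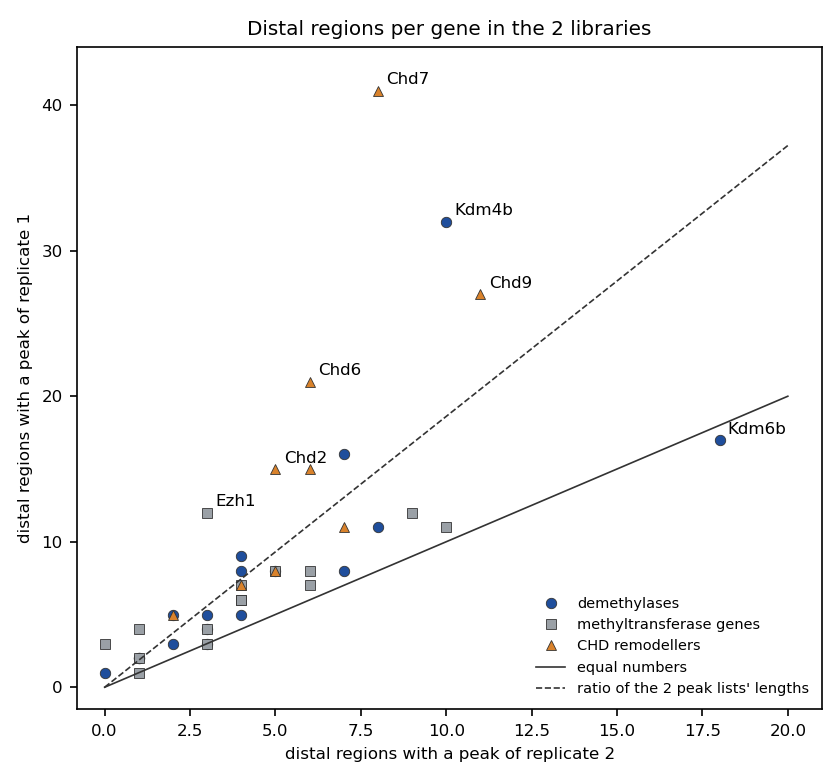
Number of distal regions in each of the 41 domains with a peak of replicate 2 (horizontal axis) and of replicate 1 (vertical axis), with demethylases as circles, methyltransferase genes as squares and CHD remodellers as triangles; the solid line marks equal numbers and the dashed line the ratio of the lists' lengths. Chd7 at 41 and Kdm4b at 32 in replicate 1 lie above the dashed line, and Kdm6b at 17 lies just below the solid line.

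The libraries differed in how many distal regions each gene had. The 41 domains held 451 distal regions, of which 128 were shared, 255 had a peak of replicate 1 alone and 68 a peak of replicate 2 alone. A partner in replicate 2 was found for 32.8% (28.3 to 37.6) of the 387 distal peaks of replicate 1, against 30.3% over all domains. A partner in replicate 1 was found for 64.9% (58.1 to 71.1) of the 205 distal peaks of replicate 2, against 61.4%. Distal regions with a peak therefore numbered 383 in replicate 1 and 196 in replicate 2, a ratio of 1.95 against 2.00 over all protein-coding genes. The ratio was 5.12 at Chd7 (41 and 8), 4 at Ezh1 (12 and 3), 3.5 at Chd6 (21 and 6) and 3.2 at Kdm4b (32 and 10), and 0.944 at Kdm6b (17 and 18). Of the 41 genes only Kdm6b had more in replicate 2, 3 genes had equal numbers and 37 had more in replicate 1. With the list of replicate 1 shortened to the length of the other by signal, the ratio was 1.13 for the 41 genes and 1.09 for all, 13 genes had more in replicate 1, 21 had more in replicate 2 and 7 had equal numbers. Chd7 still had 27 against 8 and Chd9 22 against 11. The part of library yield in these counts was not tested beyond that shortening.

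The central 150 bp of each region were searched for 13 short motifs, on both strands, and no motif letters contained another's. At the strongest shared promoter region, the SP/KLF motif GGGCGG was in 26 of 41 members (63.4%, 48.1 to 76.4) and in 54.7% of the 13391 genes with one. The NFY motif CCAAT was in 26.8% against 30.7%, the ETS motif CCGGAAG in 12.2% against 14.2%, the CTCF core AGGGGGC in 17.1% against 12.2%, and NRF1 (GCGCATGC), YY1 (AAGATGGC) and CRE (TGACGTCA) in 4.88% each against 4.94%, 2.80% and 3.44%. The E-box CAGCTG was in 4.88% against 8.31% and the SOX motif ACAATG in 2.44% against 2.84%. The proneural E-box CAGATG, the homeobox motif TAATTA, the NFI motif TTGGCA and the AP-1 motif TGANTCA were in 0 of 41, with an upper Wilson limit of 8.57%, against 4.71%, 0.642%, 5.63% and 1.71%. In every case the share of all genes lay within the interval of the members.

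In the 128 shared distal regions, GGGCGG was in 21 (16.4%, 11.0 to 23.8), against 7.88% of the 34252 regions, and CCAAT in 34 (26.6%, 19.7 to 34.8), against 18.97%. These 2 were the motifs whose share over all regions lay outside the interval. The intervals were not corrected for the number of motifs read, and they treat regions as independent, although 11 of the 128 lay around Kdm6b. The shares were not matched for base content or for distance to a TSS, whose median was 3706 bp against 5572.5 bp. Whether either accounts for the 2 differences was not tested. In the 107 regions away from RefSeq starts too, GGGCGG was in 13.1% (7.96 to 20.8) against 7.30%, and CCAAT in 29.0% (21.2 to 38.2) against 18.9%. The others ranged over shares that included those of all regions, for example 16.4% against 13.3% for TTGGCA, 11.7% against 14.8% for CAGATG and 5.47% against 3.47% for TAATTA. A match of letters is a description and not a bound factor.

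**Figure D5:**
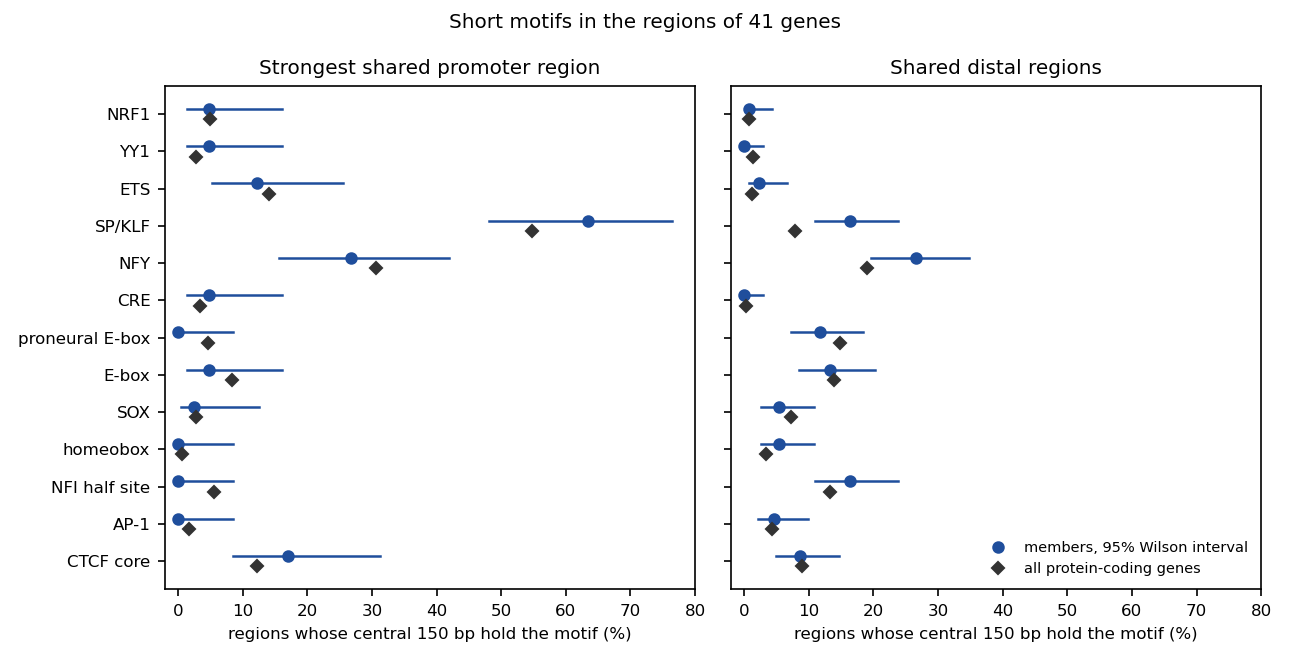
Share of regions whose central 150 bp hold each motif (horizontal axis, %) at the strongest shared promoter region (left) and in shared distal regions (right); circles with bars are the regions of the 41 genes with 95% Wilson intervals, and diamonds are those of all protein-coding genes. In distal regions the SP/KLF and NFY diamonds, at 7.88% and 18.97%, lie below the members' intervals.

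A list of 64 further genes of histone methylation and remodelling gave a similar picture. A shared promoter region was present at 63 of the 64 (98.4%, against 61% of all genes), and the exception was Smyd1, a muscle methyltransferase. At least 1 shared distal region lay in 49 domains (76.6% against 63.3%) and at least 5 in 14 (21.9% against 11.4%). Domains had a median of 64.4 kb against 37.4 kb. Shared distal regions per 100 kb had a median of 2.44, against 2.26 over all genes. The highest were Rcor2, a neural corepressor partner of LSD1, with 17.9, Setd1b with 15.1, Mbd3 with 11.1, Setd1a with 9.21 and Mta1 with 8.48. Regions at RefSeq starts were not left out of these densities. Setd1a and Setd1b are the other H3K4 methyltransferases of the SET1 type, and Mbd3 and Mta1 are subunits of NuRD. Kdm6b and Chd3 lie 29.1 kb apart on chromosome 11, but their domains do not overlap.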

How the data were processed

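DNase-seq peaks and hotspots of 2 newborn midbrain libraries, 1 group, were used as deposited. Each peak's signal is the authors' value, with no definition given; each hotspot's −log10 q is also as deposited. Lists were called per library, per the text deposited beside them; aligner, caller and versions: not given in the sources used here. Depth is unknown. Intervals off chromosomes 1 to 19, X and Y and repeated positions were set aside. Merging, overlap (at least 1 bp), distances and shares were computed with Python 3.11.15, NumPy 2.4.6, SciPy 1.17.1 and pysam 0.24.0, and the interval code was tested on simulated peaks. GENCODE M21 gave the gene models. Members, lists and motifs were chosen with earlier results of these data known. Per-library values were given for the density extremes of each subfamily, the 5 highest and lowest genes, and the 3 highest and lowest promoters; the 6 printed distal regions, the promoter sequences and further genes named by pattern were chosen after their values were seen. Alternatives were other promoter windows and domains, stricter overlap, stronger or equal-length lists, hotspots, each library alone, RefSeq starts, and Kdm6b left out. With 1 group, no test was made. 1 distal region is not reported here.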

Additional observations from a re-analysis of the deposited data

How the results depend on the processing

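Of 62 values computed under alternatives, 42 stayed within the limit set for them (1.5 times for counts and densities, 1 SD between libraries for percentiles, the 95% interval for shares); the limit for densities was tightened after seeing the data. Members with a shared promoter region numbered 36 to 41 under all settings, and 12159 to 15105 of all protein-coding genes had one. Shared distal regions in member domains, 128 as reported, were 81 in gene bodies alone, 292 with a flank of 50 kb, 84 in the stronger 50% of each list, and 197 to 381 with 1 library alone, merged without the other. Their median per 100 kb was 4.45 to 9.13 with 1 library alone, against 3.53 to 7.24 over all protein-coding genes. It was 1.39 with only regions nearest to a TSS of the gene, against 0, and 1.59 in the stronger 50% of each list, against 0.647. In gene bodies alone it was 2.47, against 0. It was 2.75 with RefSeq starts removed, against 2.10, and 2.76 without Kdm6b; these were chosen after seeing the data. The share of replicate 1 distal peaks that overlapped replicate 2, 32.8%, was 39.8% in the stronger 50% and 47.7% in lists of equal length. The converse share, 64.9%, was 56.6% with overlap of 50% of each peak, 79.4% in the stronger 50%, 54.1% in lists of equal length and 75.7% for hotspots. Lists of other lengths hold other peaks, and the cause was not tested further. No paired analysis was possible because there is 1 group. Read depth is unknown, so a region that was not called cannot be told apart from one that was missed.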
